A study of Bos taurus with 15 samples.

Results

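A set of 30 cattle genes was higher in retinal endothelial cells treated with succinylacetone than in their controls, and differed little between FLVCR2 siRNA and scrambled siRNA. The genes were chosen from 27607 Ensembl gene IDs on the measured values themselves. CPM is a gene's count divided by the library's total count and multiplied by 1e6. The quantity a is the log2 ratio of the mean CPM with succinylacetone to that in control, and b is the log2 ratio of the mean CPM with FLVCR2 siRNA to that with scrambled siRNA. A gene was kept if its mean was at least 5 CPM in each of the 4 groups, if a was at least 0.5, if every succinylacetone library lay above every control library, and if b was within 0.1 of 0. Both contrasts therefore chose the genes, and the values of both are given below as a description.

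The cells, bovine endothelial cells that line retinal vessels, were used in 2 experiments in which polyA RNA was sequenced. The groups were control (4 libraries, labelled con), succinylacetone (4, labelled SA), scrambled siRNA (4, labelled scr) and FLVCR2 siRNA (3). The treatment labels of the FLVCR2 siRNA libraries read siFLVCR2, siFLVCR3 and siFLVCR4 for replicates 1, 2 and 3, and were grouped by title, with FLVCR2 being the one target the study's design names. Doses, treatment times and the animals behind the cells are not stated in the labels, nor is whether replicate libraries stem from separate cultures. The tests thus rest on the spread among these libraries alone, and that spread may be technical. Libraries held 18842196 to 34754170 counts. The files give Ensembl IDs without gene names, and 0 of the IDs matched the reference gene table. The functions of the 30 genes, the level of FLVCR2 itself and endothelial markers were therefore not analysed here, and genes are called by their rank in a, from member 1 (the largest) to member 30.

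Heme is an iron-containing porphyrin made in a chain of enzymatic steps that begins and ends in mitochondria, and it serves as the cofactor of cytochromes, catalase and nitric oxide synthase. Succinylacetone blocks aminolevulinate dehydratase, an early enzyme of that chain, so that cells make less heme. FLVCR2 is a membrane protein of endothelial cells of the brain and retina, described as a heme carrier and, in later work, as a choline transporter. By its title, the study asks how this protein acts on heme within cells and on the growth of retinal vessels. Heme levels under either treatment are not part of the data used here.

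The rises were moderate, and most lay just above the minimum of 0.5 that the rule set. Their closeness follows largely from that cut and is no trait of the genes. The median of a was 0.55 (1.46-fold), and it ran from 0.5004 (1.41-fold) in member 30 to 0.87 (1.83-fold) in member 1. In 17 of the 30 genes a was under 0.55, in 7 it lay from 0.55 to 0.6, and in 6 it was 0.6 or more. The members were genes of low to middling level for the most part. Their mean in control ran from 5.16 to 348.3 CPM with a median of 16.7, against a median of 36.1 CPM for the 9727 IDs at or above the floor of 5 CPM in all groups. In control, 9 members had a mean under 10 CPM, 10 a mean of 10 to 20, 9 a mean of 20 to 100 and 2 a mean above 100. Every member passed the low-count filter of each test, and the lowest count of any member in any library was 101, for which counting error alone is 9.95%.

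**Figure D1:**
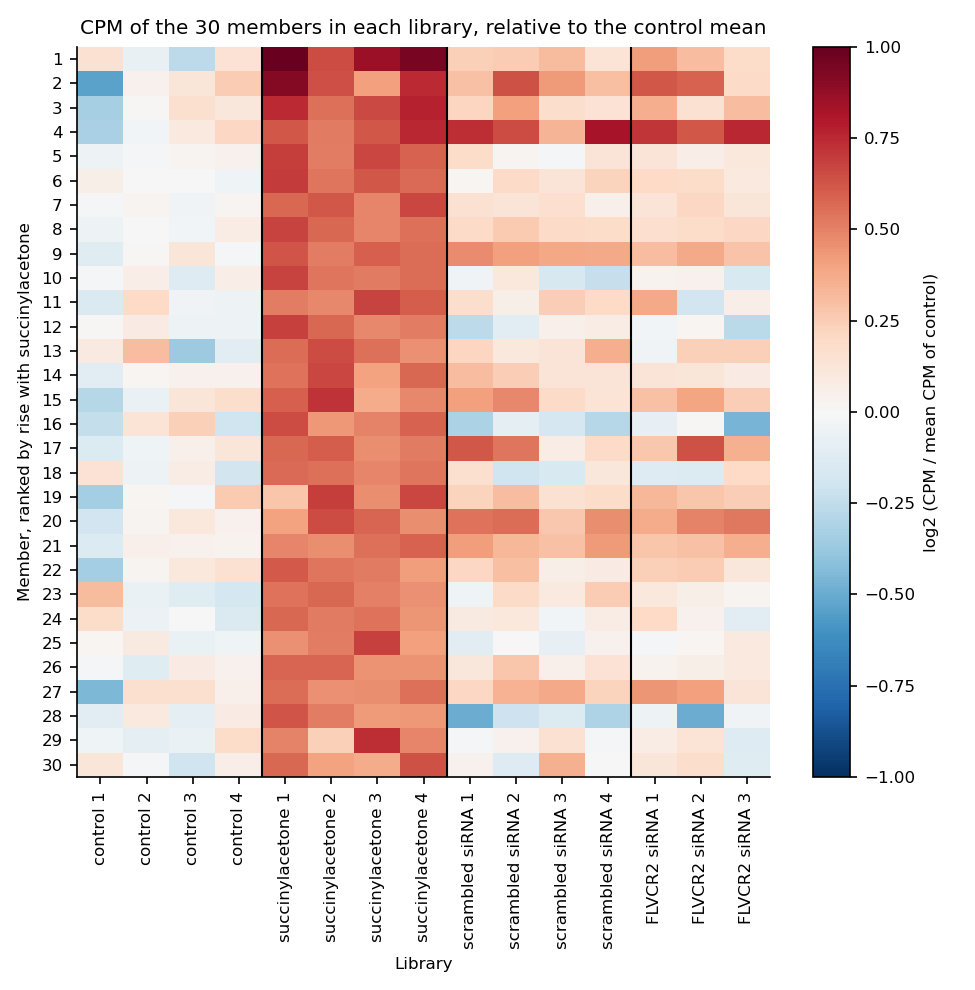
Each row is 1 of the 30 genes, ordered by a, and each column is 1 library. Colour gives log2 of the gene's CPM over its mean CPM in control, from -1 (blue) to 1 (red). The 4 succinylacetone columns are red throughout, which the choice of genes fixes, while the 7 columns of the siRNA experiment are near the control level in some genes and close to the succinylacetone level in others, such as members 4 and 20.

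Member 1, ENSBTAG00000015717, had the largest rise. Its CPM was 6.40, 5.48, 4.81 and 6.36 in control replicates 1 to 4 and 11.4, 9.08, 10.4 and 11.1 with succinylacetone. The lowest treated library stood well above the highest control library. Scrambled siRNA libraries gave 6.78, 6.88, 7.17 and 6.35 CPM and FLVCR2 siRNA libraries 7.68, 7.15 and 6.55 CPM, so that those groups overlapped. The means were 5.76 ± 0.763 and 10.5 ± 1.05 CPM in control and succinylacetone (SD, n = 4 each). In the siRNA experiment they were 6.79 ± 0.339 CPM (SD, n = 4) with scrambled and 7.13 ± 0.565 CPM (SD, n = 3) with FLVCR2 siRNA. The log2 fold change fitted by edgeR was 0.86 (SE 0.122) with succinylacetone and 0.06 with FLVCR2 siRNA, with a 95% interval of -0.19 to 0.31 for the latter. The gene sat near the floor in control, and only 1 member had a lower control mean.

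Member 6, ENSBTAG00000008353, was the most abundant of the set. It had 362.1, 346.5, 346.6 and 337.9 CPM in control replicates 1 to 4 and 564.6, 503.7, 534.8 and 516.0 CPM with succinylacetone. Its scrambled siRNA libraries lay at 352.4, 397.9, 381.1 and 405.7 CPM and its FLVCR2 siRNA libraries at 399.1, 395.6 and 373.5 CPM. The treated libraries stood apart from control by far more than either group varied, and all siRNA libraries lay among or above the control libraries and below every treated one. The means were 348.3 ± 10.1 and 529.8 ± 26.5 CPM (SD, n = 4 each), a fitted log2 fold change of 0.59 (SE 0.0370). With FLVCR2 siRNA the fitted value was 0.01, with a 95% interval of -0.12 to 0.13. Member 5, the second most abundant, showed the same pattern, at 237.0 ± 7.04 CPM in control and 363.6 ± 20.2 CPM with succinylacetone (SD, n = 4 each). Its means in the siRNA experiment were 251.4 ± 15.7 CPM (SD, n = 4) and 253.9 ± 5.54 CPM (SD, n = 3).

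Members 5 and 6 alone made up 53.6% of the set's summed control CPM. The sum over all 30 was 1093 ± 17.5 CPM in control and 1639 ± 50.2 CPM with succinylacetone (SD, n = 4 each), a ratio of 1.5002. Without those members it was 507.4 ± 21.6 and 745.8 ± 15.6 CPM, a ratio of 1.47. The minimum of a fixes a rise in the sum of any of these genes, so these ratios are a description. With scrambled siRNA the sum was 1202 ± 27.5 CPM (SD, n = 4) and with FLVCR2 siRNA 1209 ± 31.6 CPM (SD, n = 3). Without the most abundant pair these were 566.1 ± 14.1 and 566.1 ± 17.7 CPM.

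How far the treated libraries stood clear of control differed between genes. The gap, log2 of the lowest succinylacetone CPM over the highest control CPM, had a median of 0.32 and was at least 0.3 in 18 members. It was widest in member 1 (0.50). It was under 0.1 in 2 genes. In member 19 the control libraries ran from 27.3 CPM in replicate 1 to 41.4 CPM in replicate 4, and the succinylacetone libraries from 41.8 CPM in replicate 1 to 55.6 CPM in replicate 2. That gap was 0.015, and the means, 34.4 ± 5.76 and 49.9 ± 6.52 CPM (SD, n = 4 each), had the widest error of all fitted rises (SE 0.157). In member 29 a single control library, replicate 4 at 12.1 CPM, came close to the lowest treated library, replicate 2 at 12.6 CPM, and the gap was 0.061.

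The median coefficient of variation of the members in control was 9.28%. It was 8.16% for the 88 genes that met the rule apart from its limit on b, 7.21% for the 246 genes lowered under the mirrored rule (a fall of the same size, with every treated library below every control library) and 6.24% for all IDs at the floor, whose median level was higher. For the members and all IDs at the floor, the medians were 5.97% and 5.86% with succinylacetone, with scrambled siRNA 6.89% and 7.33%, and with FLVCR2 siRNA 6.43% and 5.91%. Control replicate 1 was the lowest control library in 17 of the 30 genes, and its log2 CPM lay 0.089 below the control mean on average over the members, while its average over all IDs at the floor lay 0.0064 above. Examples of its low values are members 2 (5.87 CPM against 8.77 to 10.2 in the other control libraries), 22 (26.9 against 34.8 to 38.0) and 27 (14.5 against 20.5 to 22.1). It was the highest control library in 6 genes, among them member 23 (20.6 CPM against 14.7 to 15.9) and member 24 (31.7 against 25.2 to 27.9). Without this library the rule found 23 genes, of which 20 were among the 30. For the 30 genes themselves, the median fitted log2 fold change was 0.52 without it and 0.53 with it. Without it 29 of the 30 were called higher, where 12.8% of 12816 genes were, and the rule used this contrast. FLVCR2 siRNA replicate 3 was likewise the lowest of its 3 libraries in 17 of the 30 genes. Its mean log2 deviation from its group was -0.045 over the members and 0.016 over all IDs at the floor. With that library left out, the rule found 26 genes, 23 of them among the 30.

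Within groups, the 30 genes varied together about as much as all IDs at the floor did. The deviations of log2 CPM from the group means had a mean pairwise correlation of 0.0619 over the members and of 0.0599 over all 9727 IDs at the floor. It was 0.0387 over the 58 raised genes outside the limit on b, and 0.0941 over the 109 lowered genes within it. These are descriptions over the same 15 libraries, whose depth all genes share.

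Fitted over all genes, every member was called higher with succinylacetone. All 30 passed an adjusted p under 0.05 (edgeR quasi-likelihood, Benjamini-Hochberg), where 1718 of 12727 genes (13.5%) were called higher. Nothing is read from this count, since the rule used the contrast. The fitted log2 fold changes ran from 0.49 to 0.86 with standard errors of 0.0370 to 0.157, and the median over the members was 0.53, against 0.01 over all genes tested. Every treated library stood above every control library in 1436 of the 9727 IDs at the floor (14.8%), and 88 of those had an a of at least 0.5.

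The siRNA libraries took part in choosing the members as flat, so their values are given as a description. The fitted log2 fold change with FLVCR2 siRNA ran from -0.11 in member 14 to 0.09 in member 28, and b was above 0 in 17 genes and below 0 in 13. None was called by edgeR (0 of 30, where 1.78% of 12976 genes were called in either direction). DESeq2 also called 0 of 30, where it called 2.8% of 11718 genes. The lowest unadjusted edgeR p of a member was 0.19. This is again what the rule asked for, and it does not show that these genes do not respond. The 95% intervals of the fitted values reached at most 0.12 from 0 in the gene with the narrowest and 0.35 (1.27-fold) in that with the widest, with a median reach of 0.24 (1.18-fold). Intervals stayed within 0.2 of 0 in 6 members, within 0.25 in 16 and within 0.3 in 24. The rule held the centres of these intervals near 0. Their reach therefore mostly reflects the spread among libraries and does not bound how far a gene may respond. Abundant genes had the shorter reach. The median reach was 0.13 in the 2 members above 100 CPM in control, 0.22 in the 9 genes of 20 to 100 CPM, 0.24 in the 10 genes of 10 to 20 CPM and 0.31 in the 9 genes under 10 CPM.

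**Figure D2:**
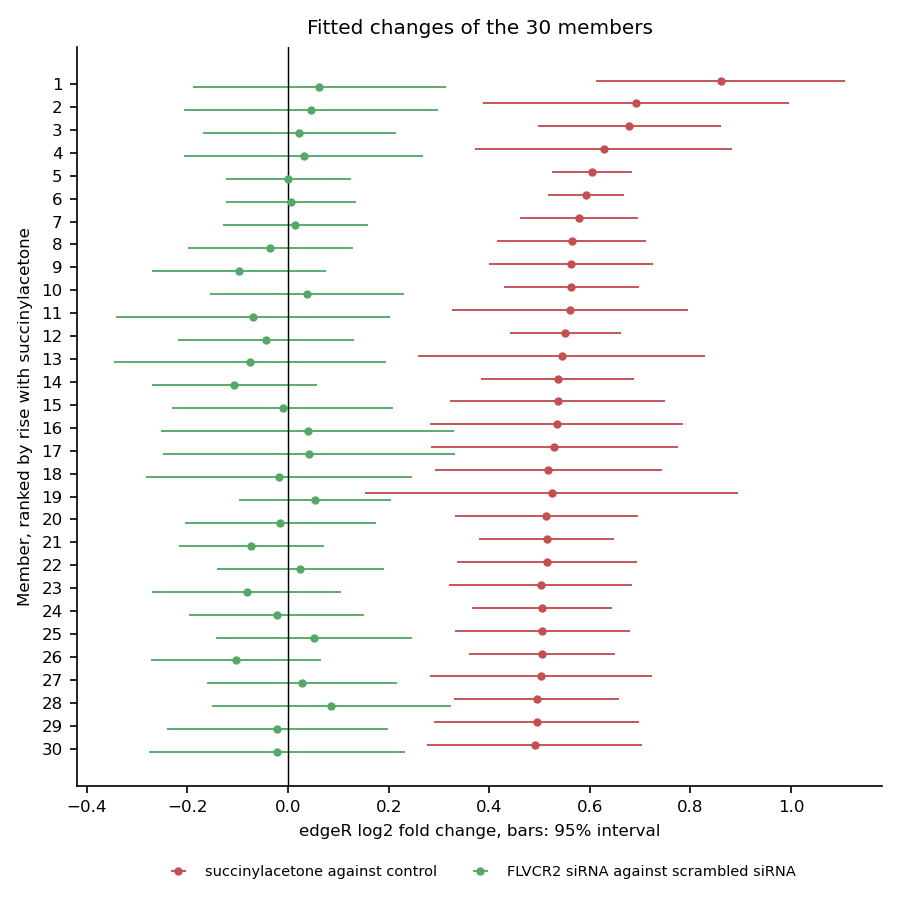
Fitted log2 fold changes of the 30 genes, ordered by a, with 95% intervals from edgeR (red, 4 succinylacetone against 4 control libraries; green, 3 FLVCR2 siRNA against 4 scrambled siRNA libraries). All green intervals include 0, with a widest reach of 0.35, and in 3 genes the green interval overlaps the red one.

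The siRNA groups overlapped in 29 of the 30 genes. In member 14 the FLVCR2 siRNA libraries, at 26.82, 26.76 and 25.996 CPM, all lay below the scrambled libraries, the nearest of which was at 26.83 CPM. Groups that do not overlap in either direction were found in 12.5% of the IDs at the floor.

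The difference of the effects, succinylacetone minus FLVCR2 siRNA, was fitted over all 15 libraries. Its fitted log2 value ran from 0.41 to 0.80 over the members, with a median of 0.58 against 0.02 over all genes. It passed edgeR's adjusted threshold in 27 of the 30 genes, where the effect of succinylacetone was called the higher in 6.44% of 13193 genes. The rule set both effects, so this is no independent evidence of a difference. Members 16, 17 and 19 did not pass. Member 19 was the gene with almost no gap between treated and control libraries, and members 16 and 17 had control means of 6.87 and 6.08 CPM, like members 1, 4, 11 and 13 (5.76, 6.29, 6.82 and 5.16 CPM), which passed. The succinylacetone and siRNA intervals of these 3 genes overlapped.

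All libraries took part in the choice, so the sizes were also read in libraries that did not. The rule was applied with 1 succinylacetone and 1 control library left out, and the log2 ratio was read in those libraries alone. Over the 16 such choices the rule found 28 to 50 genes, 19 to 26 of them among the 30. The median of a in the libraries that chose them was 0.56. In the left-out libraries the median ratio was 0.45 (range 0.28 to 0.55 over the choices), against 0.01 (range -0.05 to 0.06) for all IDs at the floor. Between 86.0% and 100% of the chosen genes were higher in the left-out treated library than in the left-out control library, where 42.6% to 62.4% of all IDs were. The rise of the genes so chosen, which are not the same set as the 30, was thus also present in the left-out libraries, at a smaller size. Whether the left-out libraries stem from cultures separate from the choosing ones is not stated. The 3 lowest values, 0.28, 0.32 and 0.35, came from choices that left out control replicate 4, with succinylacetone replicates 2, 3 and 4. The choices overlap in their libraries and are given with no test.

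The same was done with 1 FLVCR2 siRNA and 1 scrambled library left out, in 12 choices that found 23 to 36 genes. The median ratio of the chosen genes in the left-out libraries was -0.003 (range -0.0989 to 0.0825 over the choices), against 0.01 (range -0.04 to 0.08) for all IDs at the floor. Without its sign, the ratio in the left-out libraries had a median of 0.15 for the chosen genes and of 0.12 for all IDs, as medians over the choices. Over the 12 choices the former ran from 0.0811 to 0.176 and the latter from 0.0899 to 0.146. Within single choices the chosen genes had the larger value, with these exceptions. Theirs was smaller with FLVCR2 siRNA replicate 1 and scrambled replicate 2 left out (0.0938 against 0.0977). The same held for FLVCR2 siRNA replicate 2 with scrambled replicate 1 (0.122 against 0.134) or 2 (0.0811 against 0.109). In most choices the chosen genes were thus not flatter than all IDs in the left-out libraries. The members' median control level was 16.7 CPM, against 36.1 CPM for all IDs at the floor. Whether level accounts for the larger values was not tested.

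**Figure D3:**
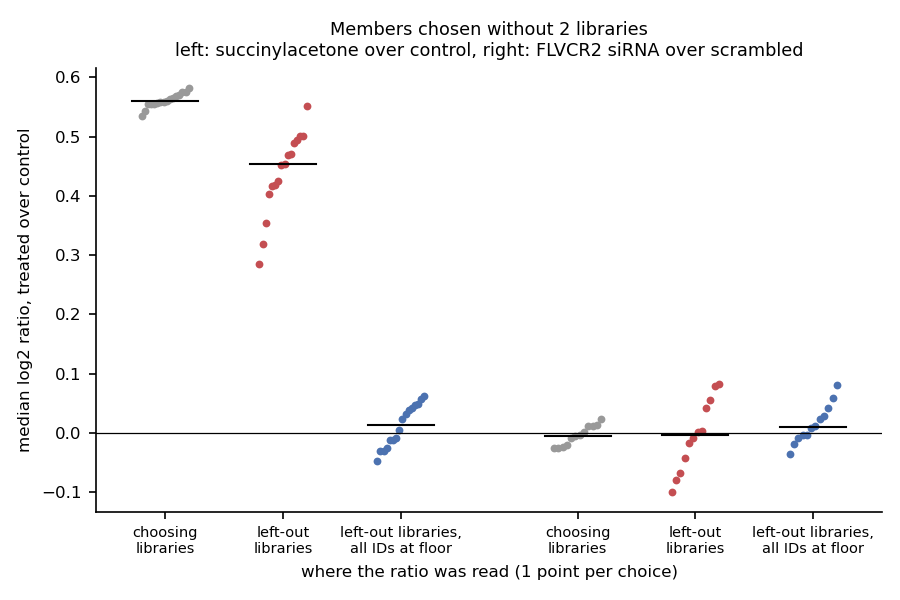
Each point is the median log2 ratio, treated over control, for 1 choice of the 2 libraries left out (16 choices for succinylacetone on the left, 12 for FLVCR2 siRNA on the right), and bars are medians over the choices. For succinylacetone the chosen genes fall from 0.56 in the choosing libraries (grey) to 0.45 in the left-out ones (red), above all IDs at the floor (blue, 0.01), and for the siRNA the chosen genes lie around 0.

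The siRNA controls did not sit at the level of the other experiment's controls. The scrambled siRNA mean was above the control mean in 24 of the 30 genes (80%), in 70.5% of the 88 genes that met the rule apart from its limit on b, and in 57.4% of all IDs at the floor. It was above in 34.1% of the 246 lowered genes. In 23 members it lay between the control and the succinylacetone mean. The median log2 ratio of scrambled siRNA to control was 0.17 over the members, with a range of -0.28 to 0.65, against 0.15 over the 88 raised genes, -0.12 over the 246 lowered genes and 0.03 over all IDs. A shift of this kind was thus also seen over the 88 raised genes. The 88 include the 30 members, and the others were not read apart. In member 4 both siRNA means, 9.88 ± 1.36 CPM (SD, n = 4) and 10.2 ± 0.476 CPM (SD, n = 3), were above that with succinylacetone, 9.77 ± 0.664 CPM (SD, n = 4), while control had 6.29 ± 0.956 CPM (SD, n = 4). In member 20 scrambled siRNA (19.2 ± 1.71 CPM) was also closer to succinylacetone (20.04 ± 1.58 CPM) than to control (13.9 ± 1.21 CPM; SD, n = 4 each). In member 28 the order was the other way, with 13.9 ± 1.48 CPM in scrambled siRNA and 16.9 ± 1.30 CPM in control (SD, n = 4 each). The control libraries belong to another experiment and their low values helped to choose the members, so that an effect of the siRNA procedure, a difference between the experiments and the choice of genes cannot be told apart here.

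The members are the flat part of a larger group of genes raised by succinylacetone. At the floor of 5 CPM, 92 IDs had an a of 0.5 or more, and in 88 of these every treated library was above every control library. Of these 88, 30 (34.1%) were flat and are the members, 34 had a b of 0.1 or more and 24 a b of -0.1 or less. Of all 9727 IDs at the floor 65.9% were flat, 20.4% had a b of 0.1 or more and 13.7% a b of -0.1 or less. The siRNA libraries entered the choice of the 88 only through the floor of 5 CPM, which all 4 groups had to meet. Among the 246 genes lowered by the mirrored rule, 109 (44.3%) were flat. By control level, in means of 20 to 100 CPM 9 of 32 raised genes were flat (28.1%) against 70.9% of all IDs, under 10 CPM 9 of 28 (32.1%) against 48.8%, and from 10 to 20 CPM 10 of 21 (47.6%) against 57.3%. The 2 members above 100 CPM came from 7 raised genes, where 71.6% of all IDs were flat. These are counts of genes that are not independent of one another, given with no test.

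**Figure D4:**
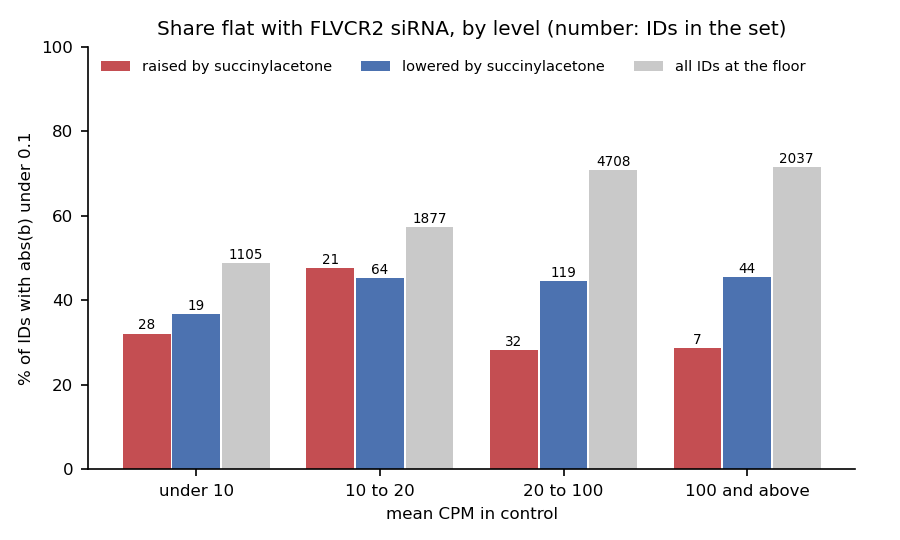
Share of IDs whose b was within 0.1 of 0, in 4 ranges of mean control CPM, for IDs raised by succinylacetone (red), lowered (blue) and all at the floor (grey), with the number of IDs above each bar. In control means of 20 to 100 CPM 28.1% of raised and 44.5% of lowered IDs were flat, against 70.9% of all.

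The members were not the most strongly raised genes. Member 1 had rank 3 in a among the 88, and the median of a was 0.59 in the 58 that were not flat, with a highest value of 0.99. Their median control level, 18.3 CPM, was close to the 16.7 CPM of the members.

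**Figure D5:**
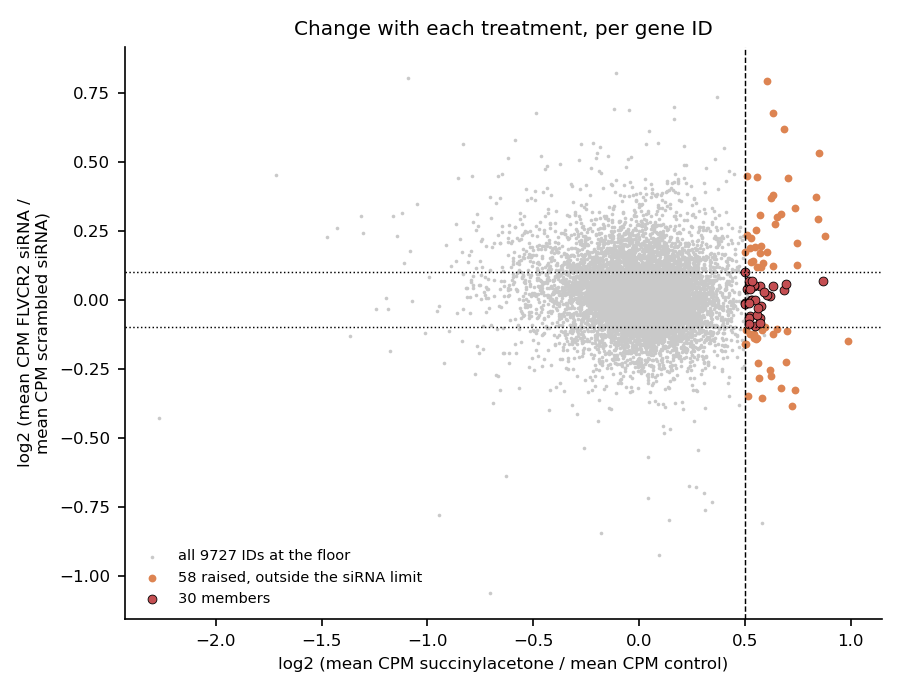
The log2 ratio of mean CPM with succinylacetone to control (a, horizontal) against that with FLVCR2 siRNA to scrambled siRNA (b, vertical), 1 point for each of the 9727 IDs at the floor. The dashed line marks 0.5 and the dotted lines 0.1 and -0.1; the 30 members lie between the dotted lines to the right of the dashed one, and 58 raised IDs lie outside them.

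The limits of the rule cut through a continuous range of genes. The 3 members with the smallest a had 0.5004, 0.5014 and 0.5030, and the nearest genes to miss the minimum, with all else met, had 0.4992, 0.4934 and 0.4828. In all, 59 genes met the other conditions with an a of 0.4 to 0.5. The 3 members farthest from flat had a b of 0.0998, -0.0948 and -0.0874, and the nearest outside had -0.1003, -0.1073 and -0.1084. The lowest group mean of a member was 5.16 CPM, and 48 genes failed the floor alone, the nearest at 4.85 CPM. Only 2 genes failed the separation of the groups alone.

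Among the members, 6 genes met the rule whichever of the 15 libraries was left out, and also with TMM or RLE library factors in place of plain totals. These settings reuse the libraries that chose the genes, so they give no independent support. The 6 genes were members 3, 5, 6, 7, 8 and 12, which had control means of 17.6, 237.0, 348.3, 40.3, 19.9 and 51.3 CPM. They include the 4 most abundant genes of the set. Member 7 had 39.7, 41.0, 39.2 and 41.1 CPM in control and 60.1, 61.8, 56.6 and 64.0 CPM with succinylacetone. Its siRNA experiment gave 44.7, 44.1, 45.1 and 41.7 CPM with scrambled and 44.1, 46.5 and 43.7 CPM with FLVCR2 siRNA. The groups of the first experiment were far apart, and those of the second overlapped. Member 12 had 51.6, 54.4, 49.5 and 49.6 CPM in control and 82.4, 76.3, 71.3 and 73.0 CPM with succinylacetone. In the siRNA experiment its libraries were more scattered, at 42.9, 47.3, 53.2 and 53.8 CPM with scrambled and 50.2, 52.0 and 42.5 CPM with FLVCR2 siRNA. Its scrambled mean, 49.3 ± 5.19 CPM, was close to its control mean, 51.3 ± 2.29 CPM (SD, n = 4 each). Of the 30 genes, member 8 had the smallest coefficient of variation with FLVCR2 siRNA, at 22.4, 22.6 and 23.0 CPM. Its control libraries lay between 19.2 and 21.0 CPM and its succinylacetone libraries between 27.9 and 31.9 CPM. Member 3 had one low control library, replicate 1 at 13.99 CPM, while the others lay between 17.8 and 19.7 CPM and the treated ones between 25.8 and 30.1 CPM.

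The other members depended more on single libraries. Member 28 met the rule in 8 of the 15 cases with 1 library left out, the fewest of the set, and its b of 0.0998 was the nearest to the limit. In all, 10 members were lost with 3 or more of the libraries.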

How the data were processed

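The authors deposited 2 tables, 1 for each experiment, of raw whole-number counts for 27607 Ensembl IDs. Per the file headers the columns came from subread alignments, and the tools named by the submitters' processing notes are featureCounts and DESeq2, with the builds hg38 and ARS-UCD1.2 and no roles. Annotation and strand setting are not given in the sources used, and overlapping or near-identical genes may share reads.

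The members and lists were chosen with earlier results of these data known. CPM used plain column totals (18842196 to 34754170 counts). Fits used edgeR 4.0.16 in R 4.3.3 (TMM factors, filterByExpr, robust quasi-likelihood F test, Benjamini-Hochberg over all genes, threshold 0.05), each treatment with its own control and the difference over all 15 libraries, with no covariate, and were tested on simulated data. Standard errors are the absolute log2 fold change over the square root of F. Replicate pairs differed by 3.75 to 46.2 times sampling noise (chi-square per degree of freedom), and every library was counted as 1. With succinylacetone, replicates 1 and 3 (7.53) and replicates 2 and 4 (3.75) were the nearer pairs. The other succinylacetone pairs lay at 26.7 to 46.2. The reason for this pairing was not tested. Alternatives were DESeq2 1.42.0, RLE factors, no filter, a replicate block, all libraries in 1 fit, other limits of the rule and each library left out. By rule, 2 IDs are printed: the member with the largest a and that with the highest control mean. The gene lists fixed by symbol were not used here. Figures were drawn with matplotlib 3.10.9.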

Additional observations from a re-analysis of the deposited data

Results flagged for a closer look

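A sample was marked where its gap to the nearest other library exceeded 0.829 of the range of its group of 4, which chance gives in about 1 in 20 groups. Of 93 sets of 4 values (30 members and their sum, in 3 groups), 4 were marked, where chance gives about 4.65. Control replicate 1 was low in member 14, at 22.7 CPM against 24.98 to 25.4 CPM in the other control libraries, and in member 21, at 25.8 CPM against 29.0 to 29.3 CPM. Control replicate 4 was high in member 29, at 12.1 CPM against 9.999 to 10.3 CPM. Scrambled siRNA replicate 2 was high in member 8, at 23.9 CPM against 22.6 to 22.7 CPM.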

How the results depend on the processing

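The number of genes that met the rule depended on its limits: it was 56 with a floor of 1 CPM, 78 with no floor, 89 with a minimum a of 0.4, 6 with 0.6, 16 with b within 0.05 and 57 within 0.2. With TMM or RLE factors it was 24 or 23, all among the 30, and with 1 library left out 23 to 41. With 2 libraries left out the median ratio ranged from 0.28 to 0.55 for succinylacetone and from -0.0989 to 0.0825 for FLVCR2 siRNA. Of the members, 29 or 30 were called higher with succinylacetone under the 13 alternatives run (9.94% to 14% of all genes tested), and 0 were called with FLVCR2 siRNA under the 12 run (0.646% to 2.96% of all genes). For the difference 23 to 28 were called under 19 alternatives (3.83% to 6.72% of all genes). With the replicate block 30, 0 and 28 members were called, and 14%, 2.13% and 6.37% of all genes. The labels do not say that equal numbers mark paired libraries, and deviations of same-numbered libraries correlated at -0.0162 to 0.122, with 2 of 4 succinylacetone and 0 of 3 FLVCR2 siRNA libraries correlating best with their own number. Over the alternatives the members' median log2 fold change ran from 0.51 to 0.56 with succinylacetone and from -0.02 to 0.03 with FLVCR2 siRNA, as values the rule itself used. The shares of raised and lowered genes that were flat, and the sum without its most abundant pair, were added after seeing the data. The raised share ranged from 27.7% to 41.4% and the lowered one from 37.8% (without scrambled siRNA replicate 3) to 45.5%. The flat calls are limited in precision: the median interval with siRNA reached 0.24 from 0. The part that depth plays in this was not tested.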
